A study of Mus musculus with 22 samples.

Results

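Expanded clonotypes of kidney B cells were selected on their number of sequences. A clonotype was defined by the nucleotides of its CDR3 junction, its V segment and its J segment, and it counted as expanded in a library where it held 20 or more sequences. A sequence here is one retained Igh variant of a library with 2 or more reads. The rule found 112 cases, each a clonotype in a library, among 6754 such pairs. They came from 106 distinct clonotypes of 6588, since 3 clonotypes were expanded in more than 1 library. The libraries were made from WT C57BL/6 mice that had received PBS (6 mice) or uropathogenic Escherichia coli, UPEC (5 mice), in the bladder at 8 to 10 weeks of age. At day 56 an anti-CD45 antibody was injected shortly before death, and kidney B cells were sorted into an unlabelled extravascular fraction and a labelled intravascular fraction. Each mouse gave one library per fraction, 22 in all, all from female mice. The extravascular gate rests on the absence of the label in kidneys that were not perfused. Igh sequences carry no marker of other cell types, so the labelled cell type could not be checked beyond the presence of rearranged Igh.

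An Igh heavy chain gene is assembled from a V, a D and a J segment, and the enzyme terminal transferase can insert nucleotides that no segment encodes at the joins. Junctions made before birth carry few such insertions, because the enzyme is largely absent in fetal B cell precursors. B-1 cells, many of them of fetal origin, include cells that bind phosphatidylcholine, and these typically use Ighv11-2 with Ighj1 or Ighv12-3 with a CDR3 of a restricted form. A clone that divides leaves many cells with one junction, and somatic hypermutation can then add changes to the V segment.

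The junctions that carry the main patterns are printed 5′ to 3′ from the conserved cysteine codon to the conserved tryptophan codon, as the sequence with the most reads in that library had them. Capitals mark inserted nucleotides, those at either join of the D segment that were assigned to no segment. The first set holds expanded clonotypes found in several mice, which are almost fully encoded by their segments.
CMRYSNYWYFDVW, Ighv11-2/Ighd2-5/Ighj1: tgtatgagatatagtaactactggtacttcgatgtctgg
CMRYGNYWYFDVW, Ighv11-2/Ighd2-1/Ighj1: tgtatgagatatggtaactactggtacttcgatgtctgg
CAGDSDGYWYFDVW, Ighv12-3/Ighd2-3/Ighj1: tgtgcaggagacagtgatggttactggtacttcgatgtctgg
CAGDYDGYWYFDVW, Ighv12-3/Ighd2-3/Ighj1: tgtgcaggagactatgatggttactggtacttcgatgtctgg
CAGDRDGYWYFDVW, Ighv12-3/Ighd2-3/Ighj1: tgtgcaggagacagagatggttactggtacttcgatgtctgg
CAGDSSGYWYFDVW, Ighv12-3/Ighd3-2/Ighj1: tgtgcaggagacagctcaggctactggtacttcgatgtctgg
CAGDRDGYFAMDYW, Ighv12-3/Ighd2-3/Ighj4: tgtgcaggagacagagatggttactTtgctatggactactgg

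The next set shows how one amino acid sequence was expanded from different junctions in 2 mice, with other assigned D segments and other inserted nucleotides. In the order printed the D stretches are 4, 6, 6 and 5 nt long. Names of D segments from such short stretches are uncertain, and so are the marked insertions.
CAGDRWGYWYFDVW, PBS mouse 1, Ighd4-1: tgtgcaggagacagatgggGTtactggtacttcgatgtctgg
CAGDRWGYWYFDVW, PBS mouse 2, Ighd2-13: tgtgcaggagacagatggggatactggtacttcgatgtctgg
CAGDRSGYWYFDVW, PBS mouse 1, Ighd1-3: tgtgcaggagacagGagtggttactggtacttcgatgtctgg
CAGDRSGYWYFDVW, PBS mouse 2, Ighd3-2: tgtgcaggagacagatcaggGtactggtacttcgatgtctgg

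The last set holds 3 very large clonotypes of Ighv3 segments, the largest intravascular one, the junction with the most inserted nucleotides and a junction read mainly as Igha.
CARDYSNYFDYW, PBS mouse 1 extravascular, Ighv3-3/Ighd2-5/Ighj2: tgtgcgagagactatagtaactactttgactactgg
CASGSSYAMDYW, PBS mouse 1 extravascular, Ighv3-1/Ighd1-1/Ighj4: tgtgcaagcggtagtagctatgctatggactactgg
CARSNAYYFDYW, PBS mouse 3 extravascular, Ighv3-1/Ighd6-3/Ighj2: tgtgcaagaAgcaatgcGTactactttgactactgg
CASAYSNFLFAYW, PBS mouse 6 intravascular, Ighv3-1/Ighd2-5/Ighj3: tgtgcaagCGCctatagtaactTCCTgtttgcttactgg
PBS mouse 2 extravascular, Ighv3-3/Ighd3-2/Ighj1: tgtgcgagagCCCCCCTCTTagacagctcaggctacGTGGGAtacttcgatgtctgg
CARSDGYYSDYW, PBS mouse 2 extravascular, Ighv1-53/Ighd2-3/Ighj2: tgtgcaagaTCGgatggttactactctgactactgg

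Expanded clonotypes were found mainly in extravascular libraries, which held 101 of the 112, and 11 lay in intravascular libraries. PBS extravascular libraries held 13, 13, 16, 6, 5 and 14 of them in mice 1 to 6. UPEC extravascular libraries held 0, 6, 10, 9 and 9 in mice 1 to 5. Among intravascular libraries, PBS mice 1 and 6 had 1 each, UPEC mouse 4 had 9, and the other 8 had 0. These counts follow from the selection rule, so they are a description and were not tested.

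The expanded clonotypes held 7746 of the 17178 sequences of the series, or 45.1%, and 55.3% of its 123192 reads. In PBS extravascular libraries they made up 66.7% ± 8.6 of sequences (SD, n = 6 mice), between 56.3% and 78.9%. In UPEC extravascular libraries they made up 36.7% ± 23.6 (SD, n = 5), between 0% and 63.0%. In intravascular libraries of PBS mice the share was 7.02% ± 15.0 (SD, n = 6). It came mostly from 1 library at 37.3% (95% Wilson interval 33.6 to 41.2), with 4.83% in PBS mouse 1. In those of UPEC mice it was 7.42% ± 16.6 (SD, n = 5), all from 1 library at 37.1% (34.1 to 40.2). Intervals cover counting error only.

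A fixed number of 20 sequences is a different share of each library, from 0.937% in the deepest to 8.20% in UPEC mouse 1 extravascular, which had 244 sequences and 936 reads. The 13 libraries with expanded clonotypes had 580 to 2134 sequences and the 9 without had 244 to 580. The reads were 3430 to 18956 in the 13 and 936 to 3837 in the 9. Both totals include the expanded clonotypes themselves, which leave 254 to 590 sequences when taken away, so depth and the presence of expanded clonotypes cannot be told apart here. In those 9 the largest clonotype had 4 to 19 sequences. Where a share of 2% of the library was used in place of 20 sequences, extravascular libraries had 96 such clonotypes and intravascular libraries 29.

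**Figure D1:**
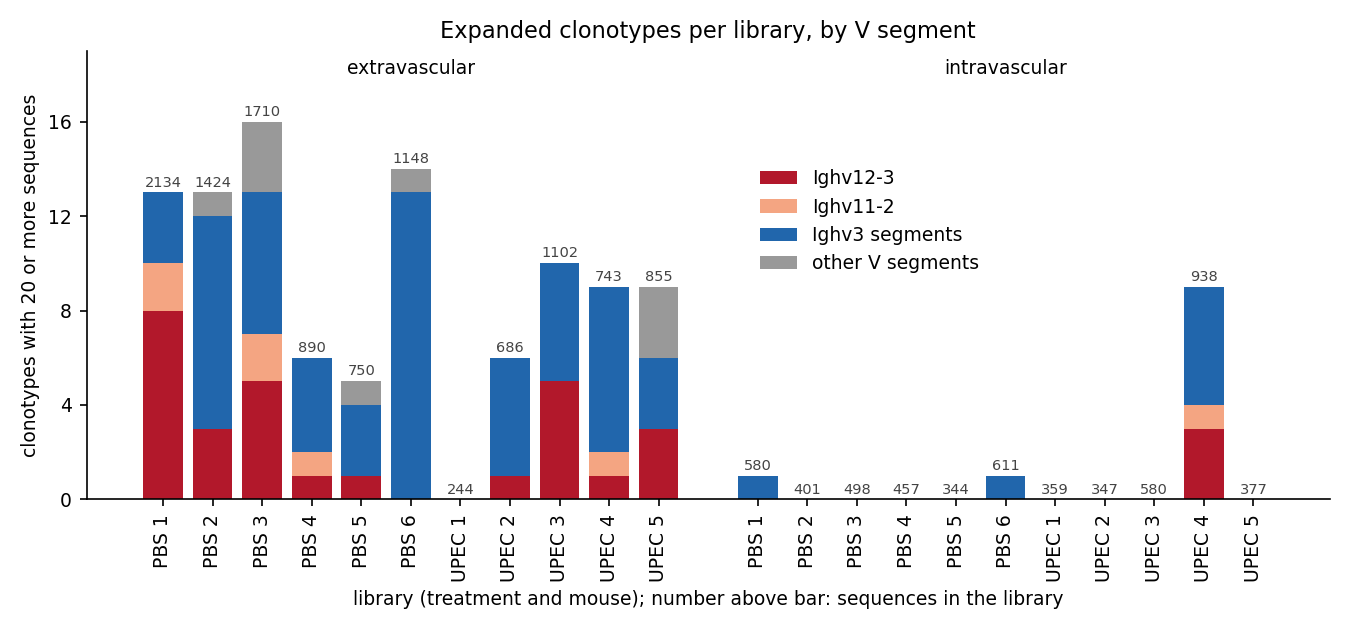
Number of clonotypes with 20 or more sequences in each of the 22 libraries (bars, coloured by V segment), with the sequences of each library printed above its bar. Extravascular libraries held 101 and intravascular libraries 11, of which 9 lay in UPEC mouse 4.

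Expanded clonotypes had 20 to 431 sequences (median 42.5) and 143 to 5139 reads (median 352.5). The largest was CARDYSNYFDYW of Ighv3-3 and Ighj2 in PBS mouse 1 extravascular, with 431 sequences, 5139 reads and 20.2% of the library's sequences (95% Wilson interval 18.55 to 21.95). In the same library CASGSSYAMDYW of Ighv3-1 and Ighj4 had 374 sequences and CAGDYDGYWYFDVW of Ighv12-3 had 215. The top clonotypes of the other extravascular PBS libraries were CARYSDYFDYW of Ighv3-8 in mouse 2 with 153 sequences, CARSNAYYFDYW of Ighv3-1 in mouse 3 with 373, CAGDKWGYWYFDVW of Ighv12-3 in mouse 4 with 218, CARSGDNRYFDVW of Ighv3-8 in mouse 5 with 178 and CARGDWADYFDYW of Ighv3-1 in mouse 6 with 83. Their shares of the library ran from 7.23% (95% Wilson interval 5.87 to 8.88) in mouse 6 to 24.5% (21.8 to 27.4) in mouse 4.

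In UPEC mice the top extravascular clonotypes were smaller in mice 4 and 5 than in mice 2 and 3. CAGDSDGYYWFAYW of Ighv12-3 and Ighj3 had 196 sequences in mouse 2, or 28.6% of the library (95% Wilson interval 25.3 to 32.1). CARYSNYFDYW of Ighv3-8 had 138 in mouse 3, an Ighv3-8/Ighj2 clonotype had 38 in mouse 4 and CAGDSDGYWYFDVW of Ighv12-3 had 50 in mouse 5. Clonotypes with 100 or more sequences numbered 17 of 67 in PBS and 3 of 34 in UPEC extravascular libraries, which had 1343 ± 522 (SD, n = 6) and 726 ± 313 (SD, n = 5) sequences in all. As a share of its library, the largest clonotype held 18.04% ± 7.25 in PBS and 10.8% ± 10.6 in UPEC mice, with ranges that overlap, 7.23% to 24.5% and 2.05% to 28.6%. These values use the number of sequences and were not tested.

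Most of the sequences of an expanded clonotype were near copies of one. The sequence with the most reads held a median of 64.2% of the clonotype's reads, between 40.7% and 91.2%. Apart from the top sequence of each clonotype there were 7634, of which 12.5% had no mismatch to it over the stretch that both cover, 83.1% had 1 mismatch and 4.35% had 2 or more. They had a median of 2 reads, and 54.0% had 2 reads, the fewest that the deposited tables hold. The top sequence had a median of 20.7 times the reads of the next one, and this ratio ranged from 1.57 to 90.4.

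When each sequence that differed by 1 nt from a sequence of the same clonotype with more reads was merged into it, 90 of the 112 expanded clonotypes were left with 1 sequence, 17 with 2, 3 with 3 and 2 with 4. No clonotype of any library kept 20. The number of sequences also went closely with the number of reads, with a Spearman rho of 0.94 and a Pearson r of 0.96 on log10 values over the 112, given as a description because clonotypes of one library share its depth. Per 100 reads an expanded clonotype had a median of 12.5 sequences. The lowest value, 3.03, was that of an Ighv1s22/Ighj1 clonotype of PBS mouse 5 with 694 reads and 21 sequences.

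The 1-nt differences were spread over the V segment rather than gathered in its CDRs. Over all expanded clonotypes they occurred at 31.2 per 10000 framework nucleotides and 17.5 per 10000 nucleotides of CDR1 and CDR2. The rate in the CDRs was the lower one in each of the 10 extravascular libraries with expanded clonotypes, at 0.289 to 0.734 times the framework rate in libraries with 3 or more. Transitions made up 15.4% of the differences. How much of this came from polymerase or sequencing errors and how much from hypermutation was not tested, so "expanded" here stands for many retained sequences and many reads, and the number of cells behind them is not measured.

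**Figure D2:**
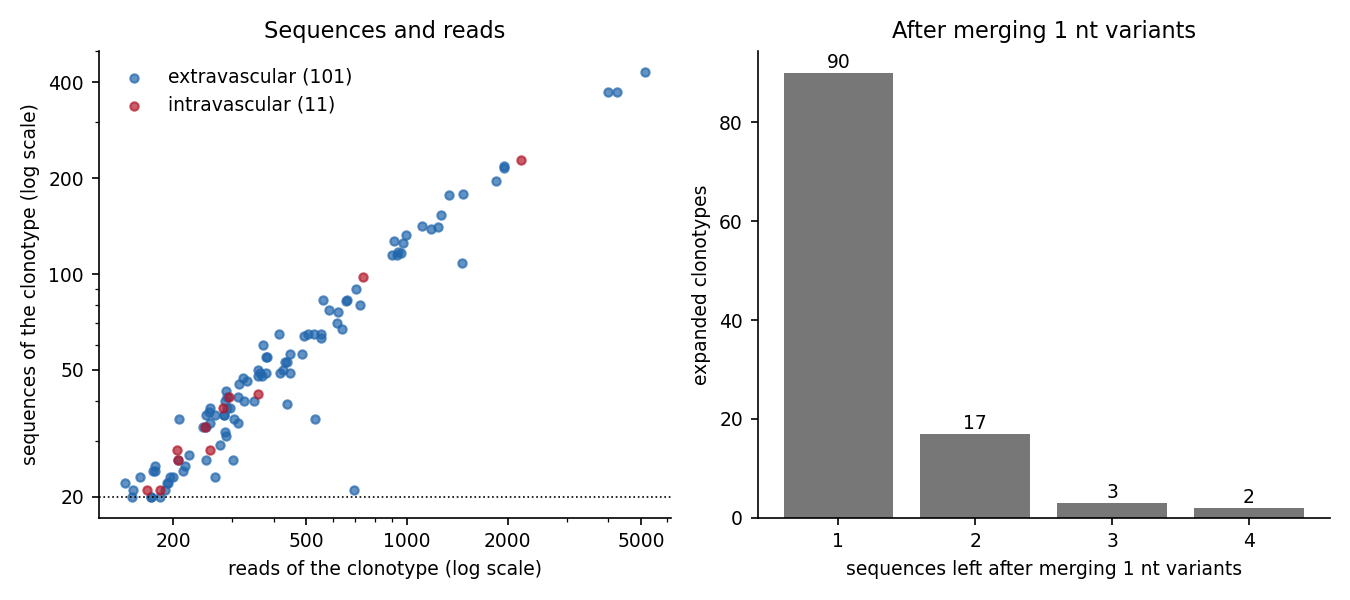
Left, sequences against reads for the 112 expanded clonotypes on log axes, with the threshold of 20 sequences as a dotted line. Right, the number of sequences each was left with after 1-nt variants were merged into sequences with more reads; 90 were left with 1.

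The expanded clonotypes were drawn from few V segments. Ighv12-3 (chr12:114366521-114366954, minus strand, GRCm38) was used by 31 of the 112 in 9 mice. Since most expanded clonotypes were extravascular, shares are given within extravascular libraries, where it was used by 27.7% of expanded and 12.5% of other clonotypes. Ighv3-8 (chr12:114322327-114322801) was used by 29 in 10 mice, at 25.7% against 11.5% of the others, and Ighv3-1 (chr12:113964388-113964818) by 23 in 9 mice, at 20.8% against 9.69%. Ighv11-2 (chr12:114048241-114048812) was used by 7, all of them cases of only 2 clonotypes in 4 mice, at 5.94% against 3.08%. Ighv3-5 had 5 and Ighv3-3 had 4, at 2.97% and 3.96% against 0.778% and 2.04%. Ighv3-6 went the other way within the Ighv3 family, with 4, at 3.96% against 10.499% of the others. The 9 remaining V segments had 1 each. These shares were not tested segment by segment. Together the Ighv3 segments made up 65 of the 112 and Ighv11-2 with Ighv12-3 made up 38. All are V genes of the Igh locus on chromosome 12.

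The mix of V segments varied between mice. In PBS mouse 1, 10 of 13 extravascular expanded clonotypes used Ighv11-2 or Ighv12-3 and 3 used an Ighv3 segment. In PBS mouse 6, none of 14 used Ighv11-2 or Ighv12-3 and 13 used an Ighv3 segment. In UPEC mice 2, 3, 4 and 5, Ighv3 segments were used by 5 of 6, 5 of 10, 7 of 9 and 3 of 9. The Ighv1 family, the largest V family of the mouse, gave 8 expanded clonotypes including Ighv1s22, each of a different segment, and 3 of them lay in PBS mouse 3 and 3 in UPEC mouse 5.

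Among J segments Ighj1 was used by 40, and within extravascular libraries by 36.6% against 27.8% of the other clonotypes. The rest had lower shares than among the others, Ighj2 with 34 (30.7% against 31.9%), Ighj4 with 20 (19.8% against 23.9%) and Ighj3 with 18 (12.9% against 16.3%). Ighv12-3 was joined to Ighj1 in 20 of 31, or 64.5%, and Ighv11-2 in 7 of 7. The pairing was much the same in other clonotypes of these segments over all libraries, at 348 of 522 (66.7%) and 132 of 137. Of all 6642 other clonotypes, 943 differed by 1 nt from an expanded junction with the same V and J in the same library. The likeness in pairing is therefore in part built in, and nothing is read from it. Ighv3-8 was joined to Ighj2 in 9, to Ighj4 in 9 and to Ighj1 in 8, and Ighv3-1 to Ighj2 in 8, to Ighj4 in 7 and to Ighj3 in 6. The most used D segment, Ighd1-1 with 30, was also the most used among the others, at 28.7% of expanded and 32.02% of other extravascular clonotypes. Ighd2-3 followed with 18 (16.8% against 13.7%), Ighd2-1 with 10 (7.92% against 4.86%) and Ighd2-4 with 9 (7.92% against 8.43%). Ighd3-2 and Ighd4-1 had 7 each, Ighd2-2 and Ighd2-5 had 6 each, Ighd2-10 and Ighd2-13 had 4 each and Ighd3-1 and Ighd1-3 had 3 each. The first D name was taken, and the D stretch had a median of 8 nt. Names from short stretches are uncertain, and counts of inserted nucleotides depend on the same assignments. The 1 expanded clonotype with no assigned D was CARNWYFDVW of Ighv3-8 and Ighj1 in PBS mouse 3, with 140 sequences.

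CDR3 length ranged from 6 to 19 amino acids with a mean of 11.9 ± 2.0 (SD, n = 112 clonotypes). A length of 12 was the most common, in 36, followed by 11, in 25. The shortest was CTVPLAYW of Ighv1-5 in PBS mouse 3 and the longest an Ighv3-8/Ighj4 clonotype of PBS mouse 6. Ighv12-3 clonotypes kept close to 1 length. Among its 30 distinct expanded clonotypes, 27 had 12 amino acids, against 414 of 475 other Ighv12-3 clonotypes. The pattern CAGD, any 2 residues, then GY was found in 24 of the 30 and in 275 of the 475 others, and the 24 held 18 different residue pairs at the free positions. Both distinct Ighv11-2 clonotypes that were expanded read CMRY, a free residue, then NYWYFDVW, as did 4 of the 66 other Ighv11-2 clonotypes. This pattern was taken from the 2 expanded clonotypes, so their match is fixed in advance. No trait of expanded clonotypes is read from it.

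Inserted nucleotides numbered 0 to 16 with a median of 4 and a mean of 4.45 ± 3.87 (SD, n = 111 with a D segment), of which 2.40 ± 2.61 lay at the join of V to D and 2.05 ± 2.54 at the join of D to J. There were 26 with none. N nucleotides alone, without the palindromic P nucleotides that arise from the segment ends, had a mean of 3.95 ± 3.62. The number varied with the V segment: all 7 Ighv11-2 cases had 0, Ighv12-3 had 2.06 ± 2.37 (n = 31) with 11 at 0, Ighv3-8 had 5.54 ± 2.86 (n = 28) with 2 at 0, and Ighv3-1 had 6.09 ± 3.58 (n = 23) with 2 at 0. Ighv3-3 was split, with 3 at 0 and 1 at 16. Over all libraries, other clonotypes of Ighv11-2, Ighv12-3, Ighv3-8 and Ighv3-1 had higher means, 2.03, 5.02, 6.70 and 6.66, the last close to that of the expanded ones. For Ighv3-6 and Ighv3-5 the expanded clonotypes had the higher means, 9.0 (n = 4) and 6.60 (n = 5) against 5.92 and 5.94. The others here include intravascular clonotypes and those 1 nt from an expanded junction. No mean by segment without them is given, so these contrasts are a description and were not tested.

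**Figure D3:**
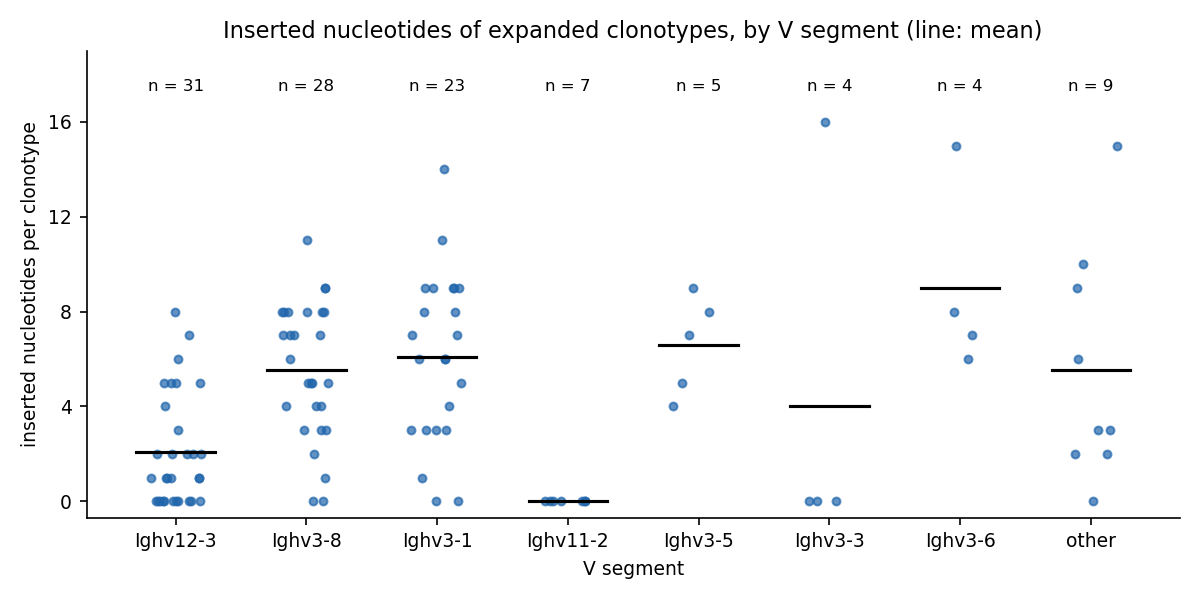
Inserted nucleotides of each expanded clonotype (points) by V segment, with the mean as a line and the number with an assigned D above. All Ighv11-2 points lie at 0, and the points of Ighv12-3 (0 to 8), Ighv3-8 (0 to 11) and Ighv3-1 (0 to 14) overlap, with means of 2.06, 5.54 and 6.09.

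To learn whether expanded clonotypes differed from the rest of their own library, 10 measures that do not use the number of sequences were compared within the 10 extravascular libraries with 3 or more expanded clonotypes. The measures and V groups were chosen with earlier results of these libraries known, so the p-values below are not independent evidence of a direction. Expanded clonotypes had 4.37 ± 1.64 inserted nucleotides against 6.32 ± 0.63 in the others, a difference of -1.94 ± 1.33 (SD, n = 10 mice), lower in 9 of 10 mice (exact two-sided signed-rank test, p = 0.0039, adjusted p = 0.013 over 10 measures). Junctions with 0 inserted nucleotides made up 24.9% ± 13.3 of expanded and 7.60% ± 3.76 of other clonotypes, higher in 10 of 10 mice (exact p = 0.0020, the smallest this number of mice can give, adjusted p = 0.013). By mouse the share of expanded clonotypes at 0 ran from 7.14% to 50.0%. In PBS mouse 1 the means were 1.38 and 4.92 inserted nucleotides, and in UPEC mouse 4, the one exception, 7.00 and 6.71.

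With the same limit on both V groups, Ighv11-2 or Ighv12-3 was used by 31.9% ± 21.2 of expanded and 16.3% ± 12.2 of other clonotypes, higher in 8 of 10 mice (exact p = 0.0098, adjusted p = 0.024). An Ighv3 segment was used by 59.4% ± 23.0 and 35.8% ± 7.1, higher in 7 and lower in 2 of 10 mice (exact p = 0.020, adjusted p = 0.033). The mice in which Ighv3 was not higher were PBS mice 1 and 3 and UPEC mouse 5. The Ighv3 difference missed the threshold when any 1 of PBS mouse 2, 4 or 5 or UPEC mouse 3 or 4 was left out (exact test, adjusted p = 0.056 to 0.065).

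Most other clonotypes were single sequences, 2634 of 3086 in extravascular libraries, and 870 of the 3086 differed by 1 nt from the junction of an expanded clonotype with the same V and J in the same library. Without these 870, inserted nucleotides differed by -1.78, the share at 0 by 17.9, the share of Ighv11-2 or Ighv12-3 by 23.5 and that of Ighv3 by 34.3 percentage points, all with an adjusted p between 0.0098 and 0.015 in the exact test. Leaving them out takes V segments of expanded clonotypes away from the others. The wider gaps in V use therefore follow in part from the definition of the 870, and nothing about V use is read from them. Against other clonotypes with 2 or more sequences none of the measures passed the threshold: inserted nucleotides differed by -0.86 (exact adjusted p = 0.17), the share at 0 by 11.8 (0.065), that of Ighv11-2 or Ighv12-3 by 14.8 (0.065) and that of Ighv3 by 17.6 (0.23).

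Expanded clonotypes without Ighv11-2 and Ighv12-3 had 1.19 fewer inserted nucleotides than the others without these segments, and 11.2 percentage points more of them had none (exact p = 0.027 for each, adjusted p = 0.082). This is short of the threshold after adjustment. CDR3 length was 12.02 ± 0.41 and 11.92 ± 0.24 amino acids, a difference of 0.10 ± 0.35 (exact p = 0.43). Ighj1 was used by 36.5% ± 18.4 and 28.3% ± 7.8, higher in 8 of 10 mice (exact p = 0.084, adjusted p = 0.10). Without Ighv11-2 and Ighv12-3 the Ighj1 difference fell from 8.15 to 0.68 percentage points, higher in 4 of 10 mice.

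**Figure D4:**
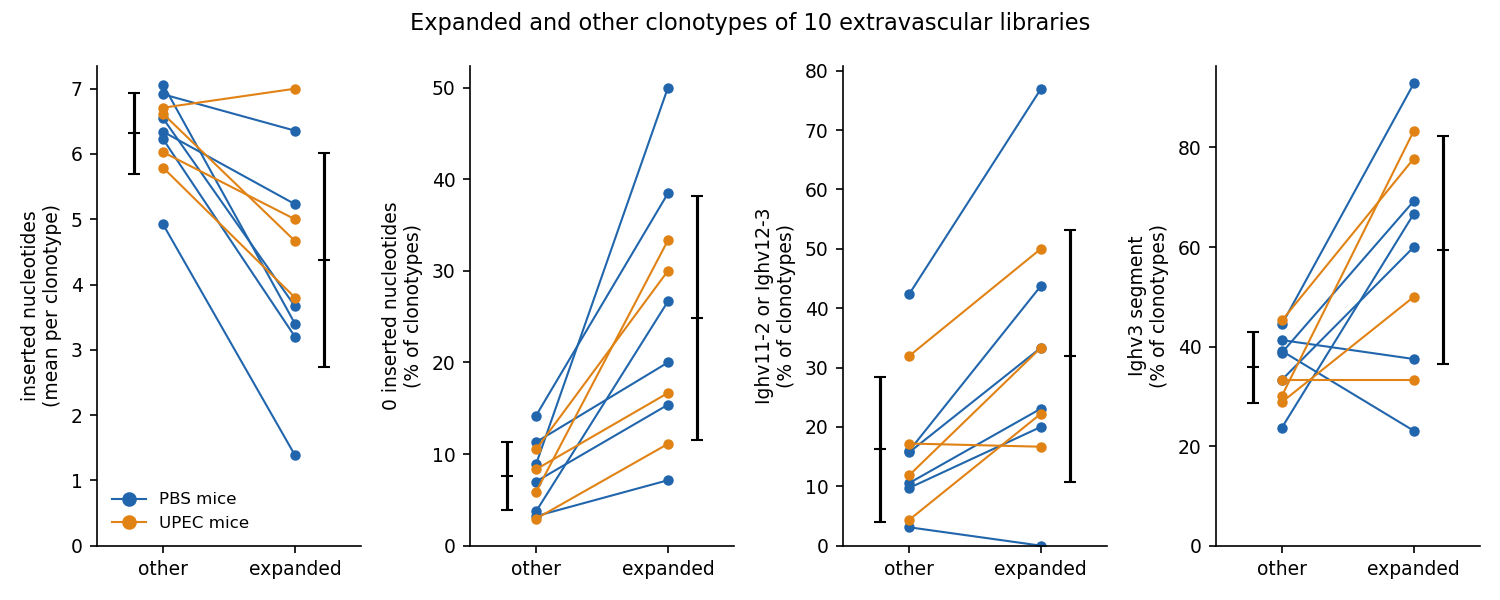
Mean of other and of expanded clonotypes in each of 10 extravascular libraries, joined by a line per mouse (blue PBS, orange UPEC), with mean and SD beside them. Inserted nucleotides were lower in 9 of 10 mice and junctions with 0 inserted nucleotides more frequent in 10 of 10.

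V segment mismatches to GRCm38 were rare. The top sequence had none in 107 of 111 expanded clonotypes. Per library the mean was 0.10 ± 0.13 in expanded and 0.19 ± 0.09 in other clonotypes, lower in 9 of 10 mice (exact p = 0.014, adjusted p = 0.027). The share with any mismatch was 4.00% of 100 and 5.17% of 2783, and 6 of the 10 libraries had no expanded clonotype with one. The top sequence of an expanded clonotype also rests on more reads than a single sequence does. Clonotypes with no assigned D were 0.63% ± 1.98 of expanded and 2.61% ± 1.31 of other clonotypes (exact p = 0.0039, adjusted p = 0.013), which is 1 expanded clonotype where 2.82 would lie at the share of the others. With 5 to 16 expanded clonotypes in a library, shares this low give 0 in most libraries whatever the group, so no difference is read from either of these tests.

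The 4 expanded clonotypes with mismatches were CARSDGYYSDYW of Ighv1-53 in PBS mouse 2 with 4, a clonotype of Ighv13-2, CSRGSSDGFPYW in PBS mouse 6, with 4, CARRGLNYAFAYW of Ighv1-55 in PBS mouse 3 with 3 and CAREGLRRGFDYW of Ighv1-64 in UPEC mouse 5 with 2. None of them used an Ighv3, Ighv11-2 or Ighv12-3 segment.

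Few expanded clonotypes were found in a second mouse, and those that were had junctions with few or no inserted nucleotides. Of the 106 distinct ones, 8 were found in another mouse: 6 of the 20 with 0 inserted nucleotides, 2 of the 16 with 1 or 2, and 0 of the 69 with 3 or more. Among distinct clonotypes that were expanded nowhere the share was also lower with more insertions, 12 of 302 (3.97%), 11 of 832 (1.32%) and 16 of 5174 (0.309%). At that last share less than 1 of the 69 would be found in a second mouse, so the 0 does not set them apart. Of the 8 found in another mouse, 7 used Ighv11-2 or Ighv12-3, 7 of 32 distinct ones, against 32 of 541 other clonotypes of these segments. None of the 65 cases with an Ighv3 segment was found in a second mouse, and 4 of 2826 other Ighv3 clonotypes were (0.142%). Matched on amino acids, V and J, 25 of the 112 cases had a match in another mouse, 11 of them only through a different nucleotide junction. No such share is given for other clonotypes, so this count is a description and not a trait of expanded ones. Per extravascular library 11.7% ± 9.5 of expanded and 3.20% ± 2.32 of other clonotypes were found in another mouse, a difference of 8.50 percentage points. The share was higher in 7 of 10 mice (exact p = 0.037, adjusted p = 0.053), which missed the threshold. The difference passed without the 870 neighbours (exact test, adjusted p = 0.039). Without Ighv11-2 and Ighv12-3 it fell to 0.71 percentage points, higher in 1 of 10 mice, and did not pass. Against others with 2 or more sequences it was 3.74 and did not pass either.

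The 2 Ighv11-2 clonotypes were the most widespread. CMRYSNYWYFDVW was found in all 11 mice and 21 of 22 libraries. It was expanded in PBS mouse 1 with 43 sequences, PBS mouse 3 with 60 and UPEC mouse 4 with 34, all extravascular, and had 1 to 13 in the other libraries. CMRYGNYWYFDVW was found in 10 mice and 18 libraries, and was expanded in PBS mice 1, 3 and 4 extravascular with 38, 24 and 35 sequences and in UPEC mouse 4 intravascular with 41. Summed over libraries, the former had 175 extravascular and 24 intravascular sequences, and the latter 118 and 52.

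Among the Ighv12-3 clonotypes, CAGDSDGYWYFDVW had 50 sequences in UPEC mouse 5 extravascular and was otherwise found only in intravascular libraries, those of 5 other mice, with 1 to 11. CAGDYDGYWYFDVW was expanded in 2 mice, with 215 sequences in PBS mouse 1 and 133 in UPEC mouse 3, and had 2 extravascular and 7 intravascular sequences in UPEC mouse 1. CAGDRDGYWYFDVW had 49 sequences in PBS mouse 3 and 2 in UPEC mouse 1 intravascular. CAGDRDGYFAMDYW had 117 in PBS mouse 5 and 1 in PBS mouse 2 intravascular, and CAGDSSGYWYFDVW had 21 in UPEC mouse 4 intravascular and 1 in UPEC mouse 1 intravascular. The remaining one, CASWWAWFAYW of Ighv1-72 and Ighj3, had 40 sequences in PBS mouse 3 and 1 in PBS mouse 4 extravascular.

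**Figure D5:**
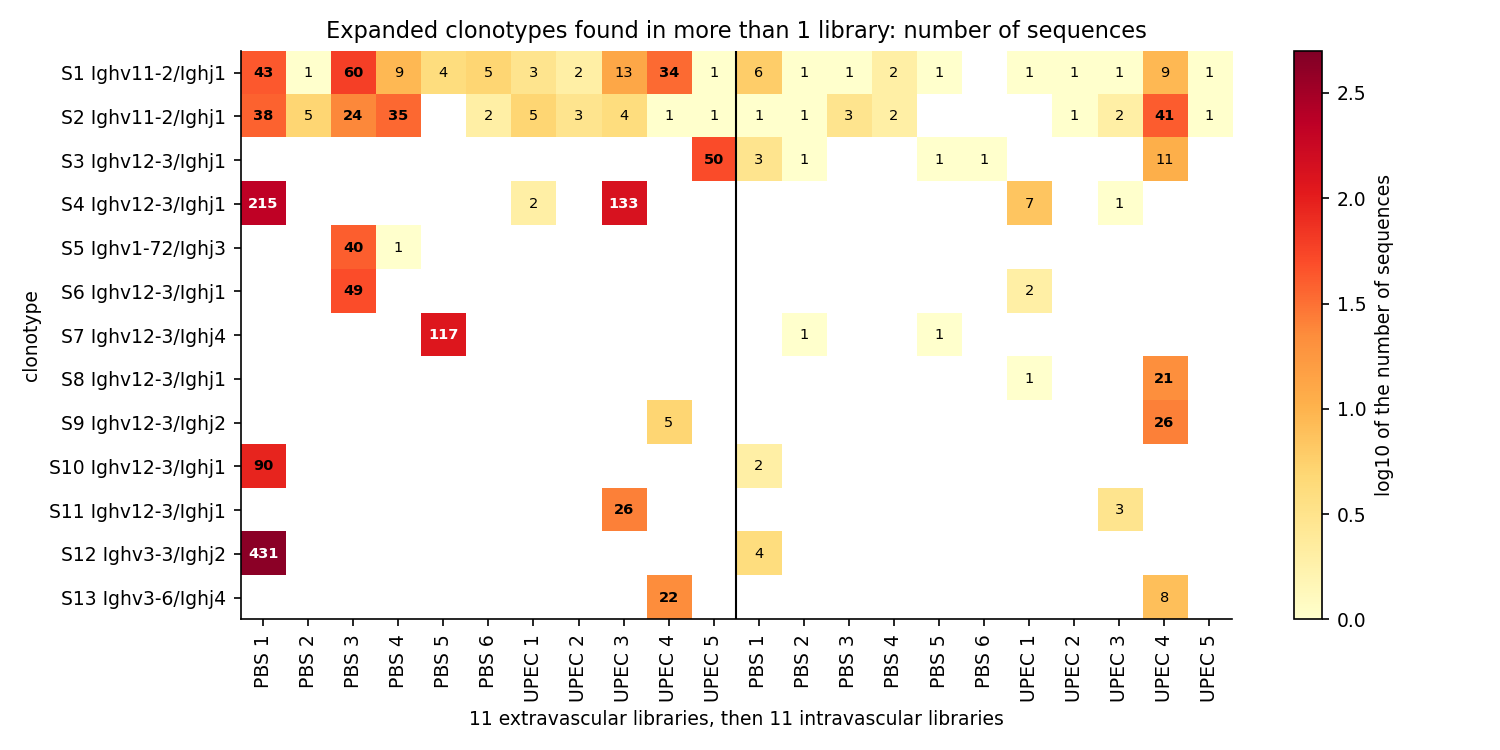
Number of sequences in each library of the 13 expanded clonotypes found in more than 1 library (rows S1 to S13, named by V and J segment; bold numbers are 20 or more; colour is log10 of the number; empty cells are 0). The first 2 rows, both Ighv11-2 with Ighj1, are found in 21 and 18 libraries, and the other 11 in 2 to 6.

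Extravascular expanded clonotypes were looked for in the matched intravascular library, to see whether a clone lay on both sides of the vessel wall. Of 101, 12 were found there. No such share is given for the other extravascular clonotypes, so the count is not read as particular to expanded ones. By mouse they were 4 of 13, 0 of 13, 2 of 16, 1 of 6, 1 of 5 and 0 of 14 in PBS mice 1 to 6, and 0 of 6, 2 of 10, 2 of 9 and 0 of 9 in UPEC mice 2 to 5. The mean share was 12.2% ± 11.5 (SD, n = 10), against 5.47% ± 5.55 in the intravascular libraries of the other mice, higher in 6, lower in 1 and equal in 3 mice (exact two-sided signed-rank test, p = 0.078). The difference did not pass the threshold, and without UPEC mouse 5 the exact p was 0.031.

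Of these 12, 8 were clonotypes that other mice also held: the 2 of Ighv11-2 in PBS mice 1 and 3, 1 of them each in PBS mouse 4 and UPEC mouse 4, and the Ighv12-3 clonotypes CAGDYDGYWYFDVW in UPEC mouse 3 and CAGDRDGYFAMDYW in PBS mouse 5. Those found in 1 mouse alone were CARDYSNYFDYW with 431 extravascular and 4 intravascular sequences and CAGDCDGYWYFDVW with 90 and 2 in PBS mouse 1, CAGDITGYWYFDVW with 26 and 3 in UPEC mouse 3, and an Ighv3-6/Ighj4 clonotype with 22 and 8 in UPEC mouse 4. All 4 were chosen for 20 or more extravascular sequences, so which fraction held more is fixed in part by the rule. Kidneys were not perfused and both fractions came from one suspension, and the part of carryover between the gates was not tested.

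Isotypes were read from 9 fields in each sequence's identifier, of which only the first, Igha, is named in the files. If the fields follow the alphabet, the second is Ighd and the ninth Ighm, and this order could not be checked. Field 9 held 95.2% of the reads of expanded clonotypes, and 86 of 112 had all their reads there. Igha held 3.77% of the reads, field 2 held 0.720% and field 5 0.251%. Within extravascular libraries, field 9 held 94.9% of the reads of expanded and 86.8% of those of other clonotypes, Igha 4.08% and 2.69%, and field 2 0.769% and 8.38%. Reads in field 2 were found for 18 of 101 expanded and 495 of 3086 other clonotypes there.

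Reads in the Igha field came from 4 expanded clonotypes, each of an Ighv1 segment. Within extravascular libraries such reads were found for 4 of 101 expanded and 45 of 3086 other clonotypes. The V segments of those 45 are not given, so the use of Ighv1 is not read as particular to expanded ones. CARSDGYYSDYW of Ighv1-53 in PBS mouse 2 had 1433 of its 1460 reads there and 25 in field 5. In UPEC mouse 5, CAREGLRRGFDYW of Ighv1-64 had all 531 reads there, an Ighv1-61/Ighj4 clonotype had 301 of 302, and an Ighv1-58/Ighj2 clonotype had 302 of 447, with 128 in field 5. Of these 4, 2 had V mismatches, against 2 of the 107 other expanded clonotypes with a value. An Ighv3-1/Ighj1 clonotype of PBS mouse 5 had 198 of its 200 reads in field 2. Per extravascular library the Igha share was 3.72% ± 9.43 of expanded and 1.39% ± 1.96 of other clonotypes, higher in 2 and lower in 7 of 10 mice (exact p = 0.57). Without UPEC mouse 5 the difference in means fell from 2.33 to 0.010 percentage points.

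The 11 intravascular expanded clonotypes came from 3 mice and are described without a test. PBS mouse 1 had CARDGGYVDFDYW of Ighv3-5 and Ighj2 with 28 sequences and 205 reads. PBS mouse 6 had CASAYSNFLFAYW of Ighv3-1 and Ighj3 with 228 sequences and 2186 reads, 37.3% of its library, and this clonotype was found in no other library. In UPEC mouse 4 the 9 held 37.1% of sequences. They were Ighv3-8 clonotypes with 98, 42 (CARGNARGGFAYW) and 38 (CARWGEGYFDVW) sequences, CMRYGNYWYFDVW of Ighv11-2 with 41, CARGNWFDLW of Ighv3-1 with 33, an Ighv3-5/Ighj3 clonotype with 21, and 3 of Ighv12-3, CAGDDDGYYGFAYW with 28, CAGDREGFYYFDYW with 26 and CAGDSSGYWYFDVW with 21.

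These 11 had 5.18 ± 3.66 inserted nucleotides and a CDR3 of 11.5 ± 1.9 amino acids, and none had V mismatches or Igha reads. In UPEC mouse 4, 2 of the 9 were also found in the extravascular library, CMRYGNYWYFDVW with 1 sequence and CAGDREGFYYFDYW with 5. That library was the deepest of the intravascular ones, with 938 sequences and 6269 reads, more than the extravascular library of the same mouse, which had 743 and 4728.

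UPEC and PBS mice were compared on the same 10 measures of extravascular expanded clonotypes, to see whether challenge changed their make-up (4 UPEC mice, since UPEC mouse 1 had none, and 6 PBS mice). No measure passed the threshold in the exact two-sided Mann-Whitney test, with 0 of 10 at an unadjusted p below 0.05, for which the smallest possible p is 0.0095. Inserted nucleotides were 5.12 ± 1.35 in UPEC and 3.87 ± 1.73 in PBS mice (exact p = 0.26). Ighv11-2 or Ighv12-3 was used by 30.6% ± 14.7 and 32.8% ± 26.1 (exact p = 0.97), an Ighv3 segment by 61.1% ± 23.6 and 58.2% ± 24.7 (exact p = 0.91) and Ighj1 by 30.8% ± 10.0 and 40.2% ± 22.5 (exact p = 0.61). The share found in another mouse was 8.06% ± 5.40 and 14.1% ± 11.3 (exact p = 0.31). With 4 and 6 mice and 5 to 16 expanded clonotypes in each, differences of this size lie within the spread between mice.

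Just inside the threshold, 9 expanded clonotypes had 20 or 21 sequences and 150 to 694 reads (median 171), 3 of them of Ighv11-2 or Ighv12-3 and 5 of an Ighv3 segment. Just outside it, 8 clonotypes had 18 or 19 sequences and 134 to 191 reads (median 159), with 3 and 5 in the same V groups. Their mean inserted nucleotides were 4.33 and 2.62.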

How the data were processed

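The deposited tables hold 1 line per productive Igh sequence and 119 annotation columns for each of 22 libraries. The authors filtered reads by quality, merged pairs, required barcode consensus, assigned constant regions, removed sequences with 1 read and ran IMGT/V-QUEST. The deposited columns give sequences, positions, segment names and, in identifiers cut at 50 characters, read counts in 9 isotype fields. Nothing was normalized.

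Clonotypes were counted in Python 3.11.15 (biopython 1.88, scipy 1.17.1, pandas 2.3.3) by junction, first V name (3.32% of lines were ambiguous) and J. Expanded clonotypes, gene groups and measures were chosen with earlier results of these data known. Named clonotypes were the largest of each library, those in 2 or more mice, those found in the own intravascular library and all intravascular ones. Others were named after their values were seen, for size, length, insertions, a missing D, mismatches, isotype or a shared amino acid sequence. V mismatches were counted against GRCm38 segments in a gapless placement of at least 100 nt with at most 15% mismatches. Of 80 V names 78 had a segment there. Within-library differences were tested over mice by exact two-sided signed-rank tests, treatments by exact Mann-Whitney tests, each adjusted over 10 measures by the Benjamini-Hochberg method at 0.05. The tests were checked on simulated data. Both libraries of a mouse share the animal, from its number in the labels, and the same number in PBS and UPEC mice does not pair them. Each mouse is a separate animal.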

Additional observations from a re-analysis of the deposited data

Results flagged for a closer look

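Single libraries stood far from the others of their group in 11 of the comparisons below, out of 36 examined for such a gap. The same library and the same value can be flagged more than once. The count is therefore a description and is not set against chance. Several rest on values that are mostly 0. PBS mouse 6 intravascular had 37.3% of its sequences in expanded clonotypes, all in 1 clonotype that also made up the library's largest, at 37.3%. PBS mouse 2 intravascular was the only intravascular PBS library with 0 clonotypes of 2% or more. UPEC mouse 4 intravascular held 9 expanded clonotypes with 37.1% of sequences and had the largest clonotype of its group, at 10.4%.

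Among extravascular libraries, the 1 expanded clonotype without a D segment gave PBS mouse 3 a share of 6.25%. The mean Igha share of reads per expanded clonotype was 7.55% in PBS mouse 2, from 1 clonotype, and 29.7% in UPEC mouse 5, from 3. UPEC mouse 2 had 0 expanded clonotypes found in another mouse. UPEC mouse 5 had a mean of 0.22 V mismatches per expanded clonotype, and the other UPEC mice had none.

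The gap in V mismatches between expanded and other clonotypes was larger in UPEC than in PBS mice by -0.10 mismatches (exact two-sided Mann-Whitney p = 0.038, adjusted p = 0.38 over 10 measures, 4 and 6 mice), which does not pass after adjustment.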

How the results depend on the processing

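The count of 112 became 181 at 10 or more sequences, 63 at 40 or more, and 0 when 1-nt variants were merged, which left no comparison to run. Of the comparisons of expanded with other clonotypes, with 10 or more sequences the share without D differed by -0.78 and V mismatches by -0.011, both short of the threshold, and CDR3 length turned to -0.17. Weighted by sequences they were -1.80, -0.093 and -0.10, with the same outcome. Against others with 2 or more sequences, inserted nucleotides (-0.86), 0 insertions (11.8), Ighv11-2 or Ighv12-3 (14.8), Ighv3 (17.6), no D (-3.58) and V mismatches (-0.072) missed it. In PBS mice alone these were -2.46, 18.2, 16.6, 21.4, -1.88 and -0.047, where none passed after adjustment (6 mice). With 6 mice the smallest p of the signed-rank test is too high for a few measures to pass after adjustment. That outcome therefore says little about these differences. Without Ighv11-2 and Ighv12-3, inserted nucleotides (-1.19), 0 insertions (11.2), no D (-1.59) and V mismatches (-0.087) missed it. The Ighv3 difference was 43.9 there and passed (exact test, adjusted p = 0.018), and that of Ighj1 was 0.68. The share found in another mouse passed with a sign-flip test (8.50) and without neighbours of expanded clonotypes (8.72). It was 0.71 without Ighv11-2 and Ighv12-3 and 3.74 against others with 2 or more sequences, neither past the threshold. Except where stated, the cause was not tested.

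Without the pairing of expanded and other clonotypes by mouse (no block), Ighv11-2 or Ighv12-3 (15.7, adjusted p = 0.089) and V mismatches (-0.088, adjusted p = 0.14) missed the threshold in an exact permutation test, and the share found in another mouse passed (8.50, permutation, adjusted p = 0.031). For the own intravascular library the difference of 6.75 stayed short without the block, and with 10 or more sequences it was 6.82 and passed (exact p = 0.016), as it did against other mice of the same treatment alone (7.225, exact p = 0.031).

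Leaving out each mouse in turn gave ranges of 20.3 to 27.9 for Ighv3 (past the threshold in 5 of 10), -0.11 to -0.077 for V mismatches (7 of 10), 6.19 to 10.1 for Ighj1 (2 of 10, without PBS mouse 6 or UPEC mouse 2), 6.83 to 9.68 for another mouse (3 of 10, without PBS mouse 2, PBS mouse 6 or UPEC mouse 2) and 5.38 to 8.11 for the own intravascular library. V mismatches missed it without PBS mouse 4, UPEC mouse 3 or UPEC mouse 4. Inserted nucleotides, 0 insertions and Ighv11-2 or Ighv12-3 passed in all 10. The share without D did so too, but from 1 expanded clonotype, and says nothing about stability.

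Between treatments no measure passed under any alternative. The smallest p of the exact Mann-Whitney test with 6 and 4 mice is 0.0095. One changed measure alone could therefore not pass after adjustment over 10 measures, and no absence of a difference is read from this. With 10 or more sequences Ighv11-2 or Ighv12-3 turned to 2.59 and no D to 2.20 percentage points. Leaving out each mouse gave -8.86 to 6.52 for Ighv11-2 or Ighv12-3, -4.52 to 12.1 for Ighv3, -0.065 to 0.22 for CDR3 length, -7.32 to 1.25 for 0 insertions and -1.26 to 8.64 for Igha. The 9 libraries without expanded clonotypes had fewer reads (936 to 3837) than most of the 13 with them (3430 to 18956). These totals include the reads of the expanded clonotypes, so depth and the counts of 0 cannot be told apart.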
